A study of Canis lupus familiaris with 6 samples.

Results

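The genes of interleukin-6 (IL-6) signalling were measured in RasV12-transformed epithelial cells that grew either among normal neighbors or among themselves. The 9 genes are the cytokines IL6, IL11 and LIF, the receptor chains IL6R, IL6ST, LIFR and OSMR, the transcription factor STAT3 and its inhibitor SOCS3. Every non-control probe whose gene name on the array is one of these symbols was taken, which gave 18 probes of 43603. The cells were MDCK, an established line of canine kidney epithelium, with the construct that the labels call pTR GFP-RasV12, in which tetracycline induces GFP-RasV12, an oncogenic Ras joined to green fluorescent protein. They were grown on collagen for 24 h with tetracycline as a culture of their own (alone, 3 samples) or together with unmodified MDCK cells (mixed, 3 samples). In both groups the GFP-positive cells were then sorted by flow cytometry, so the unmodified neighbors were meant to be left out of the RNA. The study's methods give 10 MDCK cells for 1 RasV12 cell. The label of mixed replicate 2 gives 100 to 1 instead, and the extraction text in the labels names cells with a β-catenin mutant that the titles and the methods do not give. Both groups carried the transgene and received tetracycline, and there were no samples of the unmodified neighbors.

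Cytokines of this family use a receptor chain such as IL6R or OSMR together with the shared signalling chain gp130, which IL6ST encodes. Dimers with gp130 activate Janus kinases (JAKs), which phosphorylate STAT3, and STAT3 then enters the nucleus and raises the transcription of its targets, among them SOCS3, whose protein inhibits the JAKs at gp130. STAT3 is chiefly switched by phosphorylation, which RNA levels do not show.

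Most members were measurable but differed little between the cultures. The 16 probes of 8 members were well above background on all 6 arrays, and the cytokine IL6 was above background on 0 of 6. A single member probe passed the test, STAT3 probe 1, whose mixed mean was 81.3% of its alone mean, but the other STAT3 probes did not follow it past the test. OSMR, the receptor chain for oncostatin M, had the largest difference of the family, lower in mixed cells but without passing the test. Each probe was compared with limma on log2 intensities scaled to the array's 75th percentile, and p-values were adjusted by Benjamini-Hochberg over all 26534 probes tested, at a threshold of 0.05. Of these, 11.2% passed, against 1 of the 16 member probes (6.25%). By direction, 0 member probes passed as higher in mixed cells and 1 as lower, against 5.5% and 5.72% over the whole array. At an unadjusted limma p under 0.05 stood 4 of 16, against 31.4%. Alone and mixed values were fully apart at 4 member probes, against 37.2%, with 1 higher against 17.8% and 3 lower against 19.4%. Nothing in the labels says whether the 3 samples of a group came from separate cultures, so p-values measure only the spread between these samples.

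The alone samples shared 1 slide and the mixed samples the other, so for every difference given here the slide and the culture cannot be told apart. Spike-in controls, added RNA of equal amount, were higher on the mixed slide for 7 of 7, by 0.10 to 0.24 on the log2 scale. Per array, 60.8% to 66.4% of probes exceeded background clearly. The probe for HRAS, of the family to which RasV12 belongs, passed the test as lower in mixed cells by limma (log2 difference -0.51, adjusted p = 0.0377, and 0.0554 with replicate number as a block). Its part in the results was not tested. Of the epithelial marker list, all 6 genes on the array were detected and 1 of 12 tested probes passed (8.33%, against 11.2% of all tested probes). It was a probe of the tight junction gene OCLN, higher in mixed cells (log2 difference 0.41). Of the 12, 6 were fitted higher and 6 lower, among them CDH1 at -0.36, -0.37 and -0.16. At an unadjusted limma p under 0.05 stood 6 of the 12, against 31.4%, and groups did not overlap at 7, against 37.2%. Of the markers of other cell types, PTPRC (leukocytes) and CDH5 (endothelium) were at background on all arrays. The other listed leukocyte genes CD3E, CD14 and CD68, the endothelial gene PECAM1 at 1 of its 5 probes, and the fibroblast genes COL1A1, COL1A2 and PDGFRB were detected. COL1A1 was detected at only 1 probe, and COL1A2 and PDGFRB also had a probe at background on all arrays. The tested probes of the leukocyte, endothelial and fibroblast genes, 3, 1 and 8, passed in 0 cases by limma. Of these, 0, 0 and 1 stood at an unadjusted p under 0.05. Their part in the results was not tested. In bulk RNA such as this, fewer cells of a type and less RNA per cell cannot be told apart.

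The sequences of both IL6 probes are shown because the absence of IL6 signal rests on them, and those of OSMR probe 1 and SOCS3 as the parts of these transcripts that were read. They are the 60 bases of each probe in lower case, 5′ to 3′, from the array's own annotation.
IL6 probe 1: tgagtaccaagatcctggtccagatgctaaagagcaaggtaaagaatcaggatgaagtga
IL6 probe 2: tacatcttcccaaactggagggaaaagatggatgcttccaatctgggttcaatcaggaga
OSMR probe 1: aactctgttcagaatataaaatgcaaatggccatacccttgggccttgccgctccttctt
SOCS3 probe: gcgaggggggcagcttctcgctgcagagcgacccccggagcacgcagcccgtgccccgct

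STAT3 probes 1 and 4 overlap, and a window of 30 bases from each shows where they part. Capitals mark the stretch between the shared ends, 4 bases in probe 1 and 5 in probe 4, within which the bases CAG are also the same. There are 29 shared bases before it and 21 after it.
STAT3 probe 1: gactttcACAGcccctataggtttcttttt
STAT3 probe 4: gactttcCCAGCcccctataggtttctttt

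IL6, the cytokine that gives the family its name, was not detected. Its probe 1 (A_11_P0000020013, canFam3 chr14:36476694-36477950, + strand, across an intron) gave processed intensities of 11.3, 4.92 and 6.01 in alone replicates 1, 2 and 3, and of 3.31, 2.95 and 4.35 in mixed replicates 1, 2 and 3. Probe 2 (A_11_P053561, chr14:36475832-36476588, + strand, also across an intron) gave 4.53, 3.30 and 3.35 alone and 3.83, 3.52 and 3.28 mixed. The lowest intensity called well above background was between 9.15 and 14.6 per array, and the highest IL6 value, 11.3 in alone replicate 1, was under the 12.9 of that array. The groups overlapped at both probes after scaling. An exact permutation test, two-sided, gave p = 0.2 for probe 1 and p = 1 for probe 2 (n = 3 and 3), where 0.1 is the smallest p that this design allows. No fold is given, since both groups were below background.

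IL11, a cytokine that signals through gp130 with its receptor IL11RA, was detected at low intensity (A_11_P112121, chr1:102317539-102317598). Its scaled intensity, which is the 75th-percentile-scaled value set back to scanner units, was 36.1, 39.7 and 42.9 alone and 34.8, 38.9 and 38.8 mixed. The groups overlapped, with a log2 difference of -0.08 (95% interval -0.30 to 0.15). LIF, which signals through LIFR and gp130, gave 26.1, 21.1 and 21.8 alone and 26.7, 17.6 and 20.9 mixed (A_11_P0000022873, chr26:23403641-23403700). Replicate 1 was the highest of its group in both cultures, and the log2 difference was -0.09 (95% interval -0.49 to 0.30).

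**Figure D1:**
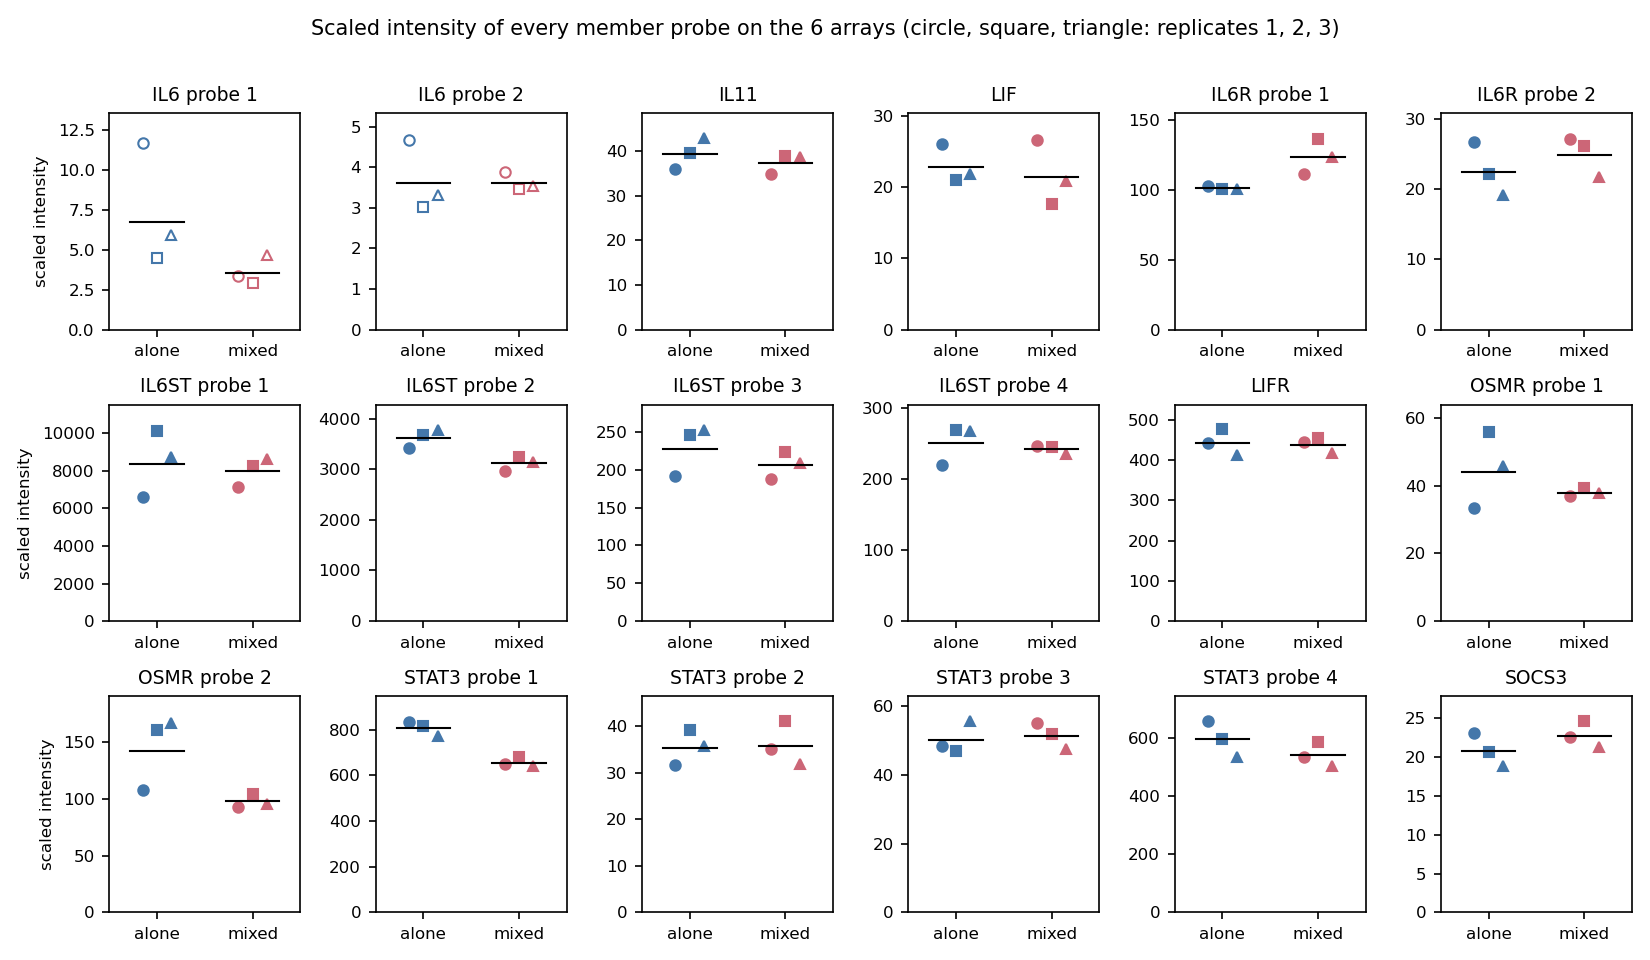
Scaled intensity (linear axis from 0, scanner units) of the 18 member probes in alone and mixed RasV12 cells. Circles, squares and triangles are replicates 1, 2 and 3, the line is the geometric mean of 3 arrays, and open symbols are the IL6 probes, which were at background on all 6 arrays. The groups are apart at IL6R probe 1, IL6ST probe 2, OSMR probe 2 and STAT3 probe 1, and overlap at the other tested probes.

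IL6R, the chain that binds IL-6 itself, was higher in mixed cells at probe 1 without passing the test. That probe (A_11_P0000017290, chr7:42880133-42880192) gave 103, 100.3 and 100.5 alone and 111, 136 and 123 mixed. All 3 mixed arrays were above all alone arrays, and the log2 difference was 0.28 (SE 0.09, limma adjusted p = 0.0930). Probe 2, which lies across an intron of the same transcript, overlapped between the groups with a log2 difference of 0.15 (95% interval -0.20 to 0.50). The log2 ratio of probe 2 to probe 1 differed by -0.13 between the cultures (exact permutation p = 0.6, n = 3 and 3).

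IL6ST, the shared chain gp130, was fitted lower in mixed cells at 4 of 4 probes, and 0 of 4 passed the test. Probe 2 (A_11_P0000016646, chr2:43214116-43214175) gave 3418, 3684 and 3779 alone and 2960, 3253 and 3145 mixed. Its groups did not overlap, and the log2 difference was -0.22 (SE 0.08, limma adjusted p = 0.114). The other IL6ST probes overlapped, with log2 differences of -0.07 at probe 1, -0.14 at probe 3 and -0.05 at probe 4. Alone values of probe 1 ranged from 6603 to 10122, and its mixed values lay inside that range.

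LIFR, the chain that LIF and oncostatin M use beside gp130, had nearly equal means. Its probe (A_11_P0000020125, chr4:70375984-70376043) gave 443, 477 and 413 alone and 445, 455 and 417 mixed. The log2 difference was -0.02, with a 95% interval from -0.22 to 0.18.

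OSMR, the chain that pairs with gp130 for oncostatin M, was lower in mixed cells at both probes without passing the test. Probe 2 (A_11_P0000038510, chr4:70017482-70017541) gave 108, 161 and 167 alone and 93.4, 105 and 95.8 mixed. The mixed arrays were all below the alone arrays, of which replicate 1 lay closest to them. The mixed mean was 68.6% of the alone mean, a log2 difference of -0.54 (SE 0.17, limma adjusted p = 0.0877). Probe 1 (A_11_P0000032456, chr4:70018084-70018143) gave 33.5, 56.0 and 45.8 alone and 36.9, 39.3 and 37.7 mixed. Here alone replicate 1 was the lowest array of all, so the groups overlapped, and the log2 difference was -0.22 (SE 0.18, adjusted p = 0.449). The log2 ratio of probe 2 to probe 1 was lower in mixed cells by -0.33 (exact permutation p = 0.1, the smallest possible with n = 3 and 3).

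Alone replicate 1 was the lowest alone array at 6 of 6 probes of IL6ST and OSMR, against 38.8% of all tested probes. Mixed replicate 1 was likewise the lowest mixed array at 5 of these 6, against 39.3%. Over all 16 tested member probes, alone replicate 1 was the lowest alone array at 8 and the highest at 6. Mixed replicate 1 was the lowest mixed array at 7 of the 16 and the highest at 4. Without alone replicate 1 and with mixed replicate 1 kept, both OSMR probes passed the test as lower in mixed cells (limma log2 difference -0.74 with adjusted p = 0.00568 at probe 2, and -0.42 with adjusted p = 0.0394 at probe 1), as did IL6ST probe 2 (-0.26, adjusted p = 0.0484). With this array of the control group left out, calls over all tested probes numbered 7335, against 2978 with all arrays.

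**Figure D2:**
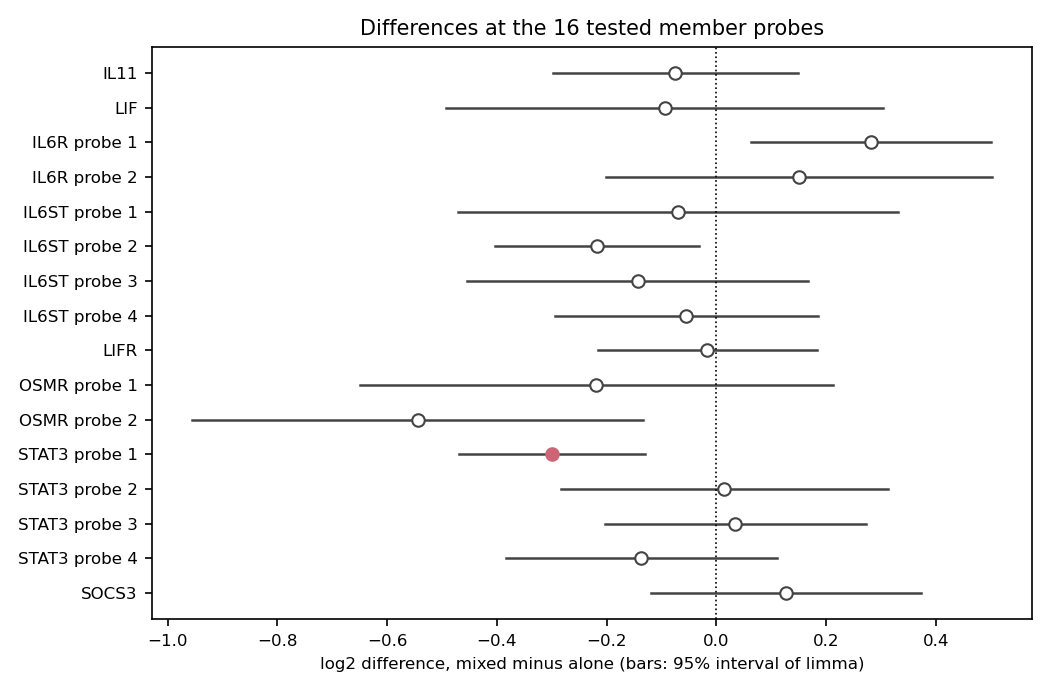
Log2 difference, mixed minus alone, at the 16 tested member probes, with the 95% interval of limma. The filled point is STAT3 probe 1 (-0.30), the only probe with an adjusted p under 0.05, and OSMR probe 2 (-0.54) has the largest difference and a wider interval.

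STAT3, the transcription factor at the end of the pathway, was lower in mixed cells at probe 1. This probe (A_11_P0000040886, chr9:20613094-20613153, + strand, from base 3169 of the array's transcript) gave 836, 816 and 773 alone and 648, 680 and 641 mixed. The groups did not overlap and the replicates lay close together, with an SD of 0.06 alone and 0.05 mixed on the log2 scale (n = 3 each). The log2 difference was -0.30 (SE 0.07, limma adjusted p = 0.0447). With replicate number as a block the adjusted p was 0.0604, above the threshold. Leaving out the array labelled 100 to 1, mixed replicate 2, gave a log2 difference of -0.33 with an adjusted p of 0.119, when only 9 probes of the whole array passed. Adjusted p was also above the threshold without alone replicate 2 (0.154), alone replicate 3 (0.117), mixed replicate 1 (0.0880) or mixed replicate 3 (0.162), and below it without alone replicate 1 (0.0373). The log2 difference stayed between -0.46 and -0.26 in all 14 alternatives, and 5 of them kept the call.

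The other STAT3 probes did not pass the test. Probe 4 (A_11_P209618, chr9:20613100-20613158) starts 6 bases after probe 1 and gave 659, 600 and 537 alone and 536, 588 and 506 mixed. Its groups overlapped, and the log2 difference was -0.14 (SE 0.10, limma adjusted p = 0.408). The log2 ratio of probe 4 to probe 1 differed by 0.16 between the cultures (exact permutation p = 0.1, the smallest possible with n = 3 and 3). Probes 2 and 3 both lie across introns upstream, starting at bases 940 and 1548 of the transcript. Probe 2 gave 31.7, 39.1 and 35.7 alone and 35.0, 41.0 and 31.8 mixed. Probe 3 gave 48.4, 46.9 and 55.8 alone and 55.2, 51.8 and 47.5 mixed. Their log2 differences were 0.01 (95% interval -0.28 to 0.31) and 0.03 (-0.20 to 0.27). STAT3 thus passed as lower at probe 1 only of its 4 probes, of which probes 2 and 3 were read at low intensity. The array's annotation does not say whether the stretch of probe 1 is coding.

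Of 16151 tested probes with other gene symbols, the profiles nearest to STAT3 probe 1 over the 6 arrays were those of TMEM66, DIAPH1 and WRAP73, with root mean square differences of 0.021, 0.023 and 0.023 on the log2 scale after centring each probe on its mean. The probe ranked 100 was at 0.048.

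SOCS3, the feedback inhibitor, was detected at low intensity and its groups overlapped. The probe (A_11_P0000021527, chr9:2859556-2859615) gave 23.1, 20.7 and 18.9 alone and 22.5, 24.5 and 21.2 mixed. The log2 difference was 0.13, with a 95% interval from -0.12 to 0.37 and an adjusted p of 0.441 by limma.

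Over the 16 tested member probes the median log2 difference was -0.07, against -0.0037 over all tested probes, and 11 of 16 were fitted lower, against 50.6%. Probes of 1 gene share a transcript, so these are not independent measurements.

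**Figure D3:**
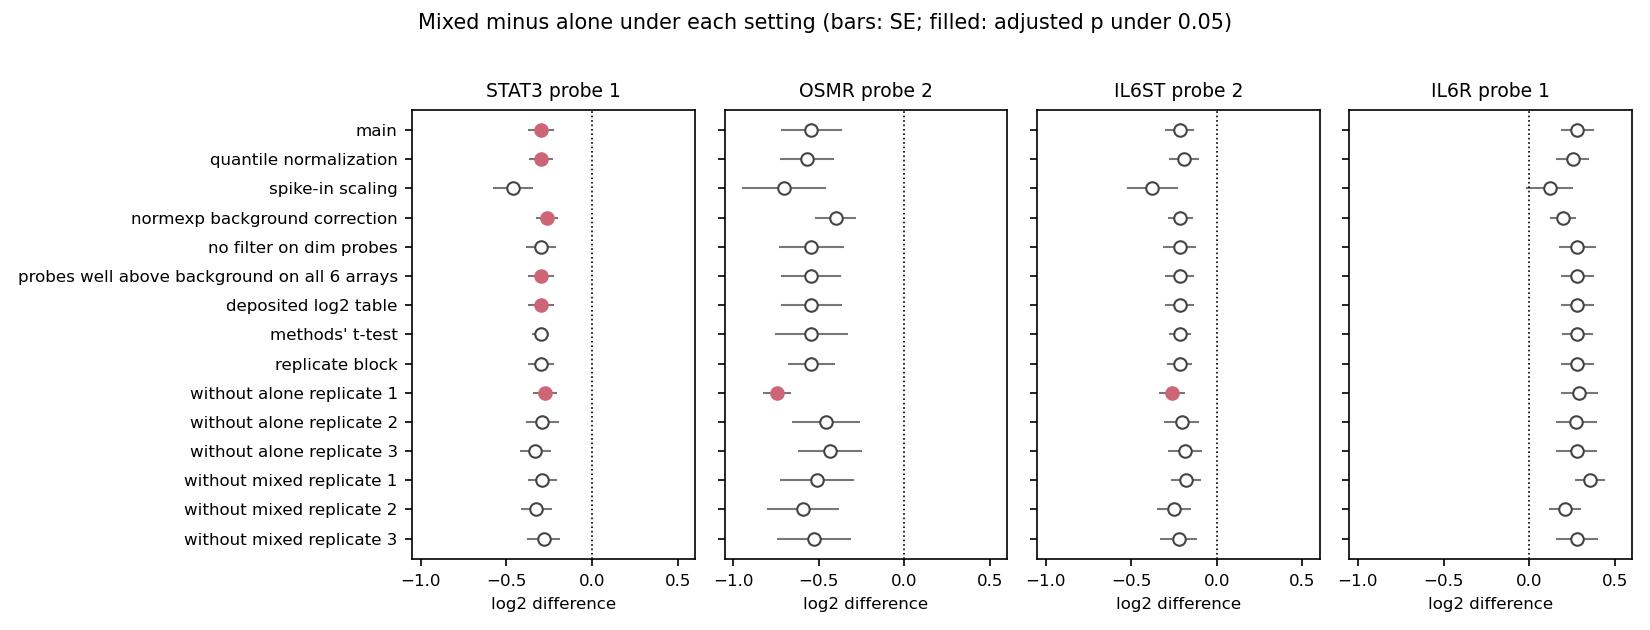
Log2 difference, mixed minus alone, at the 4 member probes whose groups did not overlap, under the main setting and each of 14 alternatives. Bars are the SE and filled points have an adjusted p under 0.05. STAT3 probe 1 is filled in the main setting and 5 alternatives, OSMR probe 2 and IL6ST probe 2 only without alone replicate 1, and IL6R probe 1 in none, while no point changes side of 0.

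Other genes of gp130 signalling were counted from a list of 31, of which 27 were on the array under their symbols and 23 were tested. GAB1, an adaptor that links gp130 to the Ras and MAPK pathway, was the only gene of the list that passed, as higher in mixed cells. Its probe A_11_P0000041622 gave 416, 389 and 366 alone and 499, 472 and 504 mixed, and probe A_11_P071966 gave 82.6, 72.2 and 78.8 alone and 98.8, 105 and 98.3 mixed. Groups did not overlap at either probe, with log2 differences of 0.33 (SE 0.08, limma adjusted p = 0.0442) and 0.38 (SE 0.08, adjusted p = 0.0363). With the replicate block adjusted p was 0.0608 and 0.0602. Of the 14 alternatives, 4 kept the call of the first probe and 3 that of the second. The third GAB1 probe overlapped, at 0.32 (adjusted p = 0.233).

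By role, 0 of 5 tested ligand genes, 0 of 2 receptor chains, 0 of 4 JAK and STAT genes, 0 of 5 inhibitors and 0 of 2 sheddases of cytokine receptors passed, and 1 of 5 MAPK adaptors did. By probe, 2 of the list's 35 passed (5.71%), against 11.2% of all tested probes. At an unadjusted limma p under 0.05 stood 7 of the 35, against 31.4% of all tested probes. Oncostatin M itself, the ligand of OSMR, was detected on all 6 arrays with a log2 difference of 0.09 (gene OSM, adjusted p = 0.700). IL27 and EBI3 were at background on all arrays, and the receptor chains CNTFR and IL31RA were well above background on only 1 and 2 arrays. The kinase gene JAK2 gave 276, 345 and 366 alone and 201, 251 and 266 mixed, with no overlap. Its log2 difference of -0.46 did not pass (limma adjusted p = 0.0954) but did with the replicate block (adjusted p = 0.0353). The list's median log2 difference was 0.03, against -0.0037 over all tested probes.

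Genes that STAT3 is known to raise in other cells had a median difference near 0, and most of those that passed were lower in mixed cells. Of 33 genes 29 were on the array and 21 tested, of which 1 was higher and 5 lower. The median log2 difference over their 30 tested probes was 0.01, with 17 fitted higher and 13 lower. Of these probes 8 passed, 26.7% against 11.2% of all tested probes. By direction 1 passed as higher and 7 as lower, against 5.5% and 5.72% of all tested probes. These genes answer to many pathways besides STAT3.

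FOS, an immediate early transcription factor, was the higher gene, with 46354, 33973 and 35227 alone and 69625, 55306 and 57752 mixed (log2 difference 0.67, SE 0.15, limma adjusted p = 0.0393). FOSL1, its relative within the AP-1 family, was lower, with 286, 327 and 289 alone and 216, 203 and 209 mixed (log2 difference -0.52, SE 0.08, adjusted p = 0.0193). Neither gene's groups overlapped. CCND1, which encodes the cell cycle regulator cyclin D1, gave 6241, 8118 and 8043 alone and 5416, 4619 and 4791 mixed, a log2 difference of -0.59 (adjusted p = 0.0366, and 0.0633 with the replicate block).

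ICAM1, an adhesion molecule for leukocytes, was lower at both probes, by -0.36 and -0.59 on the log2 scale (limma adjusted p = 0.0307 and 0.0217). HIF1A, the oxygen-regulated transcription factor, was lower at 2 of 3 probes, by -0.69 and -0.54 (adjusted p = 0.0370 and 0.0349), and stood at -0.51 at the third (adjusted p = 0.0912). VEGFA, an angiogenic growth factor that HIF-1 also induces, gave 93.6, 195 and 168 alone and 68.6, 57.4 and 50.3 mixed at the probe that passed. Its log2 difference there was -1.32 (SE 0.28, adjusted p = 0.0351, and 0.0558 with the replicate block), against -0.31 (adjusted p = 0.202) at its other probe. The groups were apart at every probe of these 3 genes. Over the whole list they were apart at 14 of 30 tested probes, against 37.2% of all tested probes.

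The other 22 tested probes of the list did not pass. MYC stood at -0.09, JUNB at -0.11, BIRC5 at 0.00 and BCL3 at 0.11 on the log2 scale, and farther from 0 stood LRG1 at 0.40, IL4R at 0.28 and 0.11, MCL1 at 0.24, PIM1 at 0.20, FGA at 0.22 and 0.17, and BCL2L1 at -0.21 and 0.02. A probe of the acute phase gene SAA1 stood at 2.79 (limma adjusted p = 0.101). The listed genes CRP, FGB, FGG, LCN2, A2M, NNMT and SERPINA3 were at background on all arrays. LRG1, and 2 probes each of the acute phase genes FGA and SAA1, were well above background on all 6. The detected FGA probes had alone geometric means of 9542 and 60.6, and the other FGA probes were at background on all arrays, so its probes disagreed.

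**Figure D4:**
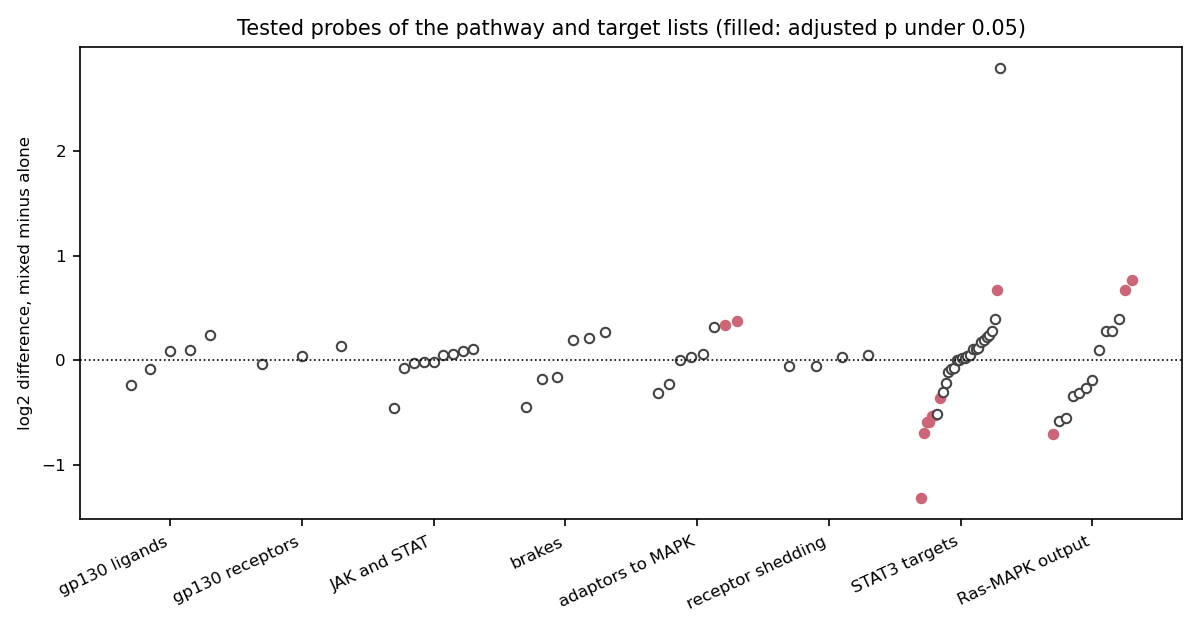
Log2 difference, mixed minus alone, of each tested probe of the other gp130 pathway genes by role, the STAT3 target list and the Ras-MAPK output list. Filled points have an adjusted p under 0.05. In the pathway lists 2 probes of GAB1 are filled, in the target list 8 probes, 1 above and 7 below 0, and the open point at 2.79 is a probe of SAA1.

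The Ras-MAPK output list was included because RasV12 drives that pathway in all samples. Of 13 tested probes 3 passed (23.1%, against 11.2% of all tested probes), 2 of the immediate early gene EGR1 as higher (0.67 and 0.77) and 1 of the receptor EPHA2 as lower (-0.71, limma adjusted p = 0.0242) in mixed cells. The 4 probes of DUSP6, an ERK phosphatase, did not overlap between groups and did not pass, at -0.19 to -0.34, where 37.2% of all tested probes did not overlap. Their part in the member results was not tested.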

How the data were processed

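RNA of 6 samples of sorted GFP-positive cells was hybridised to 1-colour Agilent canine arrays. The authors deposited scanner output with an intensity per spot (Agilent Feature Extraction 10.10.1.1), whose processed signal is background-corrected. Each column of the deposited log2 table is that signal in log2 less about the array's 75th percentile, and the table served as an alternative. The genome build canFam3 and gene names are those of the array's annotation.

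Control spots and outlier spots were left out, spots of a probe were averaged and log2 intensities were taken minus the array's 75th percentile (592 to 700 intensity units). Scaled intensities add back the mean percentile, 639. Probes that all 3 arrays of either group read well above background were tested with limma 3.58.1 in R 4.3.3 (lmFit and eBayes, all 6 arrays, threshold 0.05). The script was tested on simulated data. Groups came from the labels. The number of arrays limits the precision.

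Named were all members, called pathway and target genes (at most 10 targets) and the 3 nearest profiles of each called member. The members and lists were chosen with earlier results of these data known. JAK2, SAA1, OSM, HRAS, the Ras output genes, markers, background genes and targets that did not pass were named outside this rule. A result on 1 listed gene is not reported here. Same-numbered samples of both groups tended to deviate together (r from 0.19 to 0.38 over 25529 probes, against -0.36 to 0.26 between different numbers). These ranges overlap, and replicate number is also the position on the slide. The main test and the exact permutation tests did not use the pairing, which entered only as the replicate block. Alternatives were 2 other normalizations, normexp background correction, 2 filters, the deposited table, the methods' t-test, the replicate block and each array left out.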

Additional observations from a re-analysis of the deposited data

How the results depend on the processing

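Each result was recomputed under 14 alternatives, and a slide block was not run because each slide held 1 group. Member probes, pathway genes and target genes that passed numbered 1, 1 and 6. They numbered 0, 0 and 0 with spike-in scaling and without a filter on dim probes, 0, 0 and 2 with the methods' t-test, and 0, 1 and 4 with the replicate block, where the pathway gene was JAK2. With normexp correction there were 2 pathway genes. Leaving out each array gave 0 to 4, 0 to 5 and 0 to 9. Over all probes 2978 passed, against 995 with spike-in scaling (301 higher and 694 lower, against 1459 and 1519), 828 with the t-test, 12 without a filter, and 7 to 7335 with each array left out. Spike-in scaling moved the median of all probes by -0.16, and STAT3 probe 1 stood at -0.46 under it. The pairing by replicate number also ended the calls of STAT3 probe 1, GAB1, CCND1, VEGFA and HRAS, and among the other members and the called pathway and target genes no call changed with it but that of JAK2.

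Probes near 0 changed sign without passing in either direction. Under spike-in scaling, IL6R probe 2 stood at -0.010, STAT3 probes 2 and 3 at -0.15 and -0.13, SOCS3 at -0.034 and SAA1 probe A_11_P142418 at -0.12. Under quantile normalization STAT3 probes 2 and 3 stood at -0.018 and -0.0032. Under normexp STAT3 probe 2 stood at -0.011 and LIFR at 0.021. With each array left out, LIF ranged from -0.25 to 0.046, IL6ST probe 1 from -0.24 to 0.067, LIFR from -0.068 to 0.036, STAT3 probe 2 from -0.084 to 0.10, STAT3 probe 3 from -0.017 to 0.11, and SAA1 probe A_11_P142418 from -0.024 to 0.091. The causes were not tested. IL6 was below background on every array, so its level is only bounded.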

Other observations

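SAA1, an acute phase gene that STAT3 and NF-κB are known to induce in other cells, differed among the mixed samples. It is named after its values were seen. Its probe A_11_P0000025562 gave scaled intensities of 35.3, 24.5 and 39.3 alone, 43.3 in mixed replicate 1, and 533 and 490 in mixed replicates 2 and 3. The fitted log2 difference was 2.79 (SE 0.94, limma adjusted p = 0.101). Of the 14 alternatives it passed in only 1, the fit without mixed replicate 1 (3.98, limma adjusted p = 0.00439). That fit leaves out the mixed array with the low value, so its p-value is no support. Probe A_11_P055261 was well above background only on those same 2 mixed arrays, at 146 and 135 against 3.07 to 4.72 on the other arrays, and probe A_11_P051191 gave 194 and 175 there against 6.12 to 14.1. SAA1 probe A_11_P142418 gave 646 to 758 on all 6 arrays, and the fifth probe was at background throughout. The array's annotation places both on the - strand of chr21. The fifth probe (chr21:40665915-40666357) lies over nearly the same bases as A_11_P051191 (chr21:40665919-40666361), which is on the + strand. Whether A_11_P142418 reads SAA1 mRNA was not tested. Probes A_11_P0000025562 and A_11_P055261 are placed elsewhere on chr21, from 40629375 and 40647637, and are also on the - strand. Members of the SAA family are close in sequence, so probes may read more than 1 of them. By the labels, mixed replicates 1 and 3 share the ratio of 10 to 1 and mixed replicate 2 has 100 to 1. The reason for the difference among mixed samples was not tested.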
